A study of Homo sapiens with 6 samples.

Results

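The genes described here carry a cell from G1 into S phase and copy its DNA. They are 47 genes listed by name for their roles as E2F factors and S-phase kinases, in origin licensing, in helicase activation, at the replication fork, in nucleotide supply and in replication-coupled chromatin. All 47 were found among the 61552 gene identifiers of each library, and all 47 passed the expression filter that left 17084 genes for testing. RNA was sequenced in 6 libraries of MDA-MB-231, a long-established human cell line from a triple-negative breast cancer. The 3 VNLG-152R libraries came from cells given 10 μM VNLG-152R, a retinamide developed as a degrader of the MNK kinases, for 24 h, and the 3 vehicle control libraries came from cells given DMSO for 24 h. The sources used here do not say whether the 3 samples of a group were independent cultures, so each p-value is relative to the scatter of these samples alone, and that scatter may be technical.

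In G1, origins of replication are licensed when ORC, CDC6 and CDT1 load the ring-shaped MCM helicase onto DNA. Cyclin-dependent kinases then release E2F factors from the retinoblastoma protein, E2F factors switch on the transcription of many licensing, fork and nucleotide genes, and the atypical repressors E2F7 and E2F8 later turn that program down. At firing, CDC45 and the GINS complex join the MCM ring to form the active helicase, the polymerases follow on the PCNA clamp, and deoxynucleotides come from ribonucleotide reductase and the thymidylate enzymes. In an asynchronous culture such transcripts come largely from cells in late G1 and S phase. Fewer cells in these phases and less RNA per cell cannot be told apart in bulk samples.

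Counts assigned to genes ranged from 69923839 to 82151816 in the VNLG-152R libraries, against 60122936 to 68583224 in the vehicle control libraries, so every VNLG-152R library was deeper, and depth and treatment cannot be told apart from the totals alone. After all libraries were thinned to the depth of the shallowest, the same 8 replication genes passed the test as at full depth, beside 1.47% of all genes then called lower. VIM and CD44, mesenchymal markers of the line, were expressed in every library, and ESR1 had at most 8 counts. Of 8 markers listed as expressed in the line, VIM and CAV1 fell in edgeR (25%, beside 1.43% of all tested genes). Their log2 fold changes of VNLG-152R relative to vehicle were -0.39 and -0.60, and the median of the 8 was -0.23. In 4 of the 8 (50%) every VNLG-152R library was below every vehicle control library, beside 13.4% of all tested genes. In 1 every VNLG-152R library was above, beside 15.1%. ERBB2, listed as low in this line, was not absent. Of 14 markers of other cell types, 11 were under the expression filter, and 0 of the 3 tested, PECAM1, COL1A1 and PDGFRB, were called in edgeR, nor lower or higher at an unadjusted p under 0.05.

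Replication genes were lower with VNLG-152R, by small amounts. Of the 47 genes, 8 fell and 0 rose at an adjusted p under 0.05 (edgeR quasi-likelihood test, Benjamini-Hochberg over all 17084 genes), which is 17.0% falling, beside 1.43% of all tested genes that fell and 3.76% that rose (5.19% in either direction). The 8 were the phosphatase CDC25A, the repressor E2F8, the helicase factors GINS2, GINS3 and MCM10, and the nucleotide enzymes RRM2, TYMS and TK1. At an unadjusted p under 0.05, 27 of the 47 were lower and 1 was higher, beside 9.76% and 12.8% of all tested genes. The log2 fold change, always of VNLG-152R relative to vehicle, was negative in 45 of 47 genes, against 50.4% of all tested genes, and its median was -0.24, against -0.0024 over all tested genes. In 29 of the 47 (61.7%) all 3 VNLG-152R libraries lay below all 3 vehicle control libraries, which was so for 13.4% of all tested genes. Only E2F7 lay above in all 3, a pattern held by 15.1% of all tested genes. Together the 47 genes took 0.434%, 0.402% and 0.425% of TMM-normalized counts in VNLG-152R replicates 1 to 3, against 0.502%, 0.471% and 0.488% in vehicle control replicates 1 to 3, so the groups did not overlap.

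**Figure D1:**
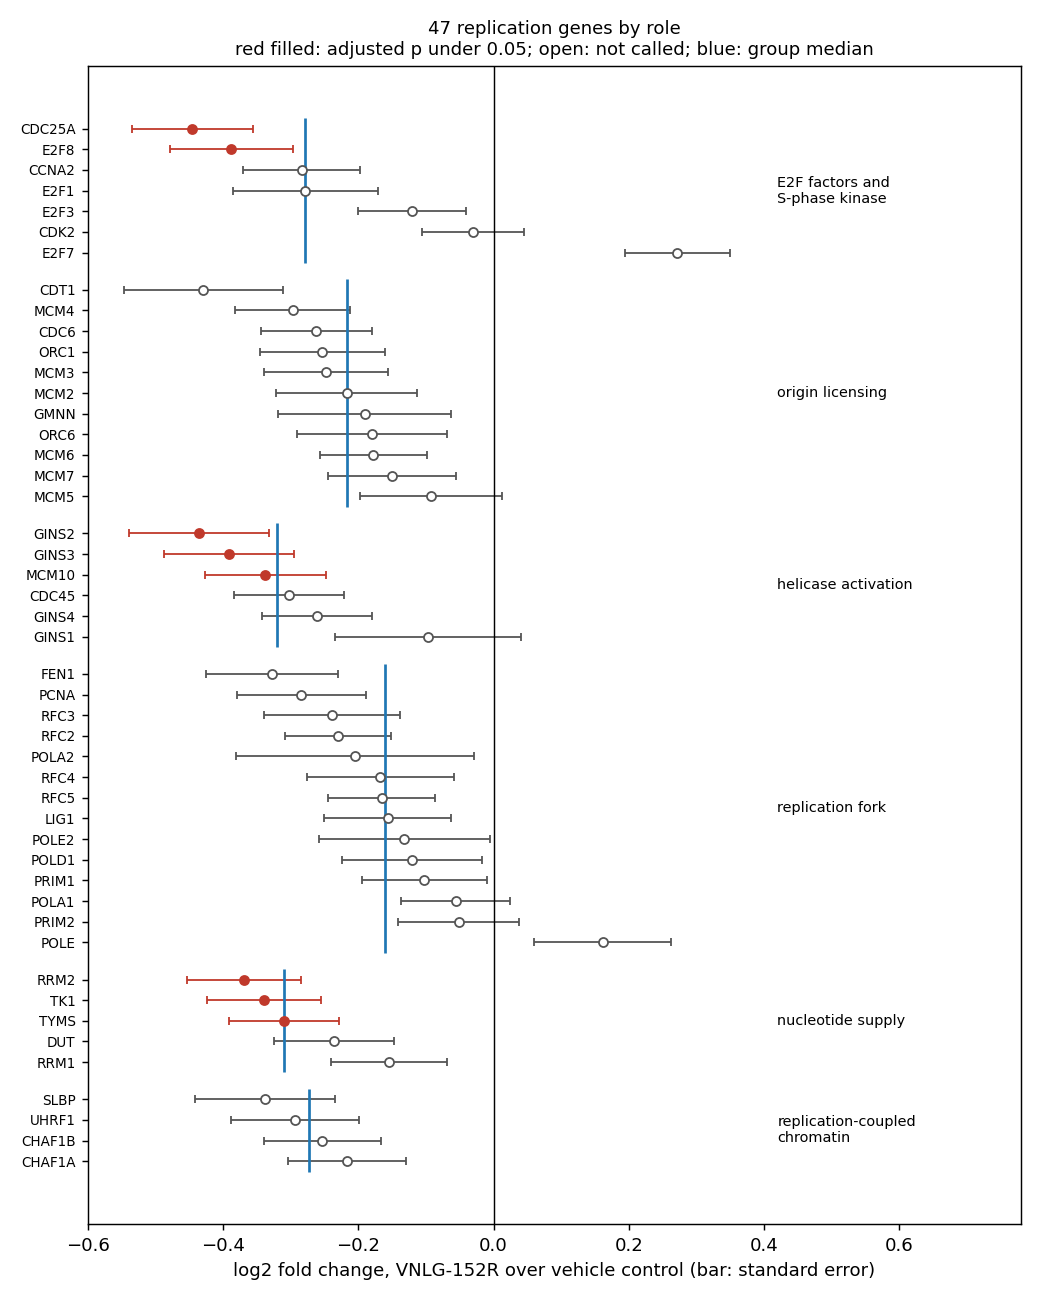
Log2 fold change of VNLG-152R relative to vehicle (x axis, points) with its standard error (bars) for each of the 47 genes, arranged by role, with filled red points for an edgeR adjusted p under 0.05, open points for the rest and a blue line at the median of each role. The points of 45 genes lie left of 0 and those of E2F7 and POLE lie right of it.

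The number of calls depended on single libraries. Without VNLG-152R replicate 1, 9 genes fell, namely CDC25A, CDC45, CDT1, E2F1, E2F8, GINS3, RRM2, TK1 and UHRF1, and E2F7 rose, beside 1.98% of all genes called lower and 3.43% called higher. Without VNLG-152R replicate 2 only GINS2 fell (background 0.82%), and without VNLG-152R replicate 3 only CDC25A (0.407%). Without vehicle control replicate 1 only E2F8 fell (0.595%), and without vehicle control replicate 2 CDC25A, GINS2 and RRM2 (0.805%). Without vehicle control replicate 3 edgeR called 0 of the 47 (0.251%), where 21 genes were still lower at an unadjusted p under 0.05. The median log2 fold change of the 47 genes stayed between -0.28 and -0.20 in these 6 refits, and 43 to 45 of the 47 were negative. For 20 of the 47 genes, 0 of them among the 8 that fell, leaving out 1 library moved the log2 fold change by over 1.5 times. The 8 were called in these same libraries by their fold change relative to the scatter, so that 0 is not separate support for them. DESeq2 called 18 of the 47 lower and E2F7 higher, beside 3.67% and 6.66% of all genes, and limma-voom called the same 8 as edgeR, beside 1.35%. Longer transcripts had higher log2 fold changes (Spearman's rho 0.22 over 16725 genes that share these 6 libraries). A correction for transcript length left 4 genes falling, CDC25A, E2F8, MCM10 and RRM2, beside 1.17% of all genes.

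Short stretches of sequence before the start sites are shown for some of the genes, because E2F factors bind a known motif in such promoters. They were picked among genes that hold a match to the letters searched. Of those shown, CDC25A, GINS2 and TYMS fell in edgeR, and CDT1, PCNA and E2F1 did not pass the test. MCM10, RRM2 and TK1, which fell, held no match and are not shown. RefSeq promoters (GRCh38.p14, 250 bases before to 50 bases after each start) were at hand for 42 of the 47 genes, and not used here for E2F8, CDK2, MCM4, MCM5 and GINS4. The letters TTTCCCGC, TTTGGCGC, TTTGCCGC and TTTCGCGC were searched on both strands, where matches on opposite strands can overlap each other. A match was found in 23 of the 42 genes (54.8%), beside 1090 of the 27305 genes in the table (3.99%). Each line below gives the 100 bases just before a RefSeq start, 5′ to 3′ on the strand of the gene, with the matches in capitals.
CDC25A (chr3:48188418-48188517, minus strand): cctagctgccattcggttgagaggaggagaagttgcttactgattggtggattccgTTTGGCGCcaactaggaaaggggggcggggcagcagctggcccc
GINS2 (chr16:85688955-85689054, minus strand): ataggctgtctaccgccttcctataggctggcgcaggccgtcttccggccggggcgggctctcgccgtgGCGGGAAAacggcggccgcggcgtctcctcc
TYMS (chr18:657553-657652, plus strand): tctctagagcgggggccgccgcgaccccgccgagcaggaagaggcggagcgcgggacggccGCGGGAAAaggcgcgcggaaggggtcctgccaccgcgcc
CDT1 (chr16:88803689-88803788, plus strand): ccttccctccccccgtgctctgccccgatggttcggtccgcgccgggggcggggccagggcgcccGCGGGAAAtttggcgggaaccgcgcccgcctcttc
PCNA (chr20:5126623-5126722, minus strand): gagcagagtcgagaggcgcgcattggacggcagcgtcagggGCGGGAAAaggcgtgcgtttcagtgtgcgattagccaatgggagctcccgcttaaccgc
E2F1 (chr20:33686386-33686485, minus strand): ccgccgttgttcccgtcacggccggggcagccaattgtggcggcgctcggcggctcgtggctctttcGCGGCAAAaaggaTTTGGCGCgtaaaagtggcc
In CDC25A the match reads in the gene's own direction, and in GINS2, TYMS, CDT1 and PCNA it is the reverse complement, GCGGGAAA. E2F1 itself has TTTGGCGC in the gene's own direction and GCGGCAAA, the reverse complement of TTTGCCGC, within the stretch shown. Of the 8 genes that fell, 7 were in the table and 4 of these, CDC25A, GINS2, GINS3 and TYMS, held a match. The median log2 fold change was -0.24 in the 23 genes with a match and -0.23 in the 19 without. A match is a description of these letters and not evidence that a factor binds there.

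Among the E2F factors and S-phase kinases, CDC25A and E2F8 fell (28.6%, beside 1.43% of all tested genes). Of the 7 genes, 6 had a negative log2 fold change, and the median was -0.28. CDC25A, the phosphatase that activates CDK2 at the G1/S transition, lies on chromosome 3 from 48157146 to 48188402 (GRCh38, GENCODE 29). It had 32.5, 28.3 and 32.6 CPM, the count as a share of the TMM-scaled library, in VNLG-152R replicates 1 to 3, against 44.8, 39.6 and 42.8 CPM in vehicle control replicates 1 to 3. Every VNLG-152R library was below every vehicle control library, and the log2 fold change was -0.45 (standard error 0.09, edgeR adjusted p = 0.016). CDC25A had the smallest p of the 47 genes and kept its call in 3 of the 6 refits that left out 1 library. E2F8, an atypical repressor that closes the E2F program, had 22.5, 19.9 and 23.6 CPM in VNLG-152R replicates 1 to 3, against 27.3, 29.1 and 29.9 CPM in vehicle control replicates 1 to 3. The groups did not overlap, and its log2 fold change was -0.39 (standard error 0.09, edgeR adjusted p = 0.0311).

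E2F7, the partner repressor of E2F8, had higher values in every VNLG-152R library without passing the test. It had 114, 118 and 122 CPM in VNLG-152R replicates 1 to 3, against 94.7, 100.4 and 98.5 CPM in vehicle control replicates 1 to 3, a log2 fold change of 0.27 (standard error 0.08, edgeR adjusted p = 0.0655). All 3 VNLG-152R libraries were above all 3 vehicle control libraries. CDK2, the kinase of the G1/S transition and of S phase, had the highest level per transcript length of the 7, at 44.1 RPKM, the CPM divided by exon length in kilobases (mean of the groups). It had 107, 105 and 108 CPM in VNLG-152R replicates 1 to 3, against 112, 107 and 108 CPM in vehicle control replicates 1 to 3, so the groups overlapped and the log2 fold change was -0.03 (standard error 0.08), or 0.011 after the length correction. Antisense genes cover 16.8% of the exons of CDK2. The S-phase partner of CDK2, cyclin A (CCNA2), had a log2 fold change of -0.28 with groups that did not overlap (edgeR adjusted p = 0.0792). The activators E2F1 and E2F3 had log2 fold changes of -0.28 and -0.12, and the VNLG-152R and vehicle control libraries overlapped for E2F1 and not for E2F3.

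In origin licensing, the log2 fold change was negative for all 11 genes and the median was -0.22, but none passed the test. At an unadjusted p under 0.05, 6 of the 11 were lower in edgeR, beside 9.76% of all tested genes. DESeq2 called CDC6, CDT1 and MCM4 lower, beside 3.67% of all genes, and limma-voom called 0 of the 11, beside 1.35%. CDT1, which loads the MCM helicase, had 54.7, 38.0 and 47.8 CPM in VNLG-152R replicates 1 to 3, against 63.8, 59.5 and 65.9 CPM in vehicle control replicates 1 to 3. The groups did not overlap, VNLG-152R replicate 2 was the lowest library, and the log2 fold change was -0.43 (standard error 0.12, edgeR adjusted p = 0.0555). CDC6, the other loader, and ORC1 of the origin recognition complex had log2 fold changes of -0.26 and -0.25, both with groups that did not overlap. GMNN, the inhibitor of CDT1, and ORC6 had -0.19 and -0.18, both with overlapping groups, and with 1 library left out they ranged from -0.32 to -0.054 and from -0.26 to -0.065, each nearest to 0 without VNLG-152R replicate 1.

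The 6 subunits of the MCM ring had unequal values. MCM3 had the highest level of the 11 at 117 RPKM, with 377, 304 and 346 CPM in VNLG-152R replicates 1 to 3, against 407, 401 and 412 CPM in vehicle control replicates 1 to 3, and its groups did not overlap. MCM4 had 145, 127 and 142 CPM in VNLG-152R replicates 1 to 3, against 179, 163 and 166 CPM in vehicle control replicates 1 to 3, a log2 fold change of -0.30 (standard error 0.09, edgeR adjusted p = 0.0662). MCM3, MCM4 and MCM6 had all VNLG-152R libraries below all vehicle control libraries. MCM2 had 141, 104 and 123 CPM in VNLG-152R replicates 1 to 3, against 136, 146 and 146 CPM in vehicle control replicates 1 to 3. MCM5 had 135, 104 and 115 CPM in VNLG-152R replicates 1 to 3, against 114, 128 and 136 CPM in vehicle control replicates 1 to 3. MCM7 had 288, 236 and 253 CPM in VNLG-152R replicates 1 to 3, against 266, 296 and 301 CPM in vehicle control replicates 1 to 3. In these 3 subunits VNLG-152R replicate 1 lay within the range of the vehicle control libraries and VNLG-152R replicate 2 was the lowest library. MCM6 had 112, 105 and 114 CPM in VNLG-152R replicates 1 to 3, against 131, 122 and 121 CPM in vehicle control replicates 1 to 3. The log2 fold changes of MCM2, MCM5, MCM6 and MCM7 were -0.22, -0.09, -0.18 and -0.15. Without VNLG-152R replicate 1 those of MCM2, MCM5 and MCM7 were -0.33, -0.20 and -0.23, and without VNLG-152R replicate 2 they were -0.11, -0.0096 and -0.087. Antisense genes cover 23.6% of the exons of MCM2 and 8.94% of those of MCM7.

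In helicase activation, GINS2, GINS3 and MCM10 fell (50%, beside 1.43% of all tested genes). All 6 genes had a negative log2 fold change, and the median was -0.32. GINS2, a subunit of the GINS complex that joins CDC45 and MCM in the active helicase, lies on chromosome 16 from 85676198 to 85690073. It had 12.5, 15.7 and 14.4 CPM in VNLG-152R replicates 1 to 3, against 20.4, 17.7 and 19.6 CPM in vehicle control replicates 1 to 3, and its log2 fold change was -0.44 (standard error 0.10, edgeR adjusted p = 0.0333). GINS3, on the same chromosome from 58295080 to 58406144, had 13.2, 11.4 and 13.4 CPM in VNLG-152R replicates 1 to 3, against 16.9, 15.8 and 17.2 CPM in vehicle control replicates 1 to 3. Its log2 fold change was -0.39 (standard error 0.10, edgeR adjusted p = 0.0374), and an antisense gene covers 10.9% of its exons. For both subunits every VNLG-152R library was below every vehicle control library. GINS4 had 39.6, 40.6 and 44.1 CPM in VNLG-152R replicates 1 to 3, against 49.7, 48.9 and 50.5 CPM in vehicle control replicates 1 to 3, with no overlap, a log2 fold change of -0.26 and an edgeR adjusted p of 0.0858. GINS1 had 24.1, 36.7 and 29.2 CPM in VNLG-152R replicates 1 to 3, against 35.6, 28.0 and 32.7 CPM in vehicle control replicates 1 to 3. Its groups overlapped, its log2 fold change was -0.10, and without VNLG-152R replicate 1 it was 0.040. Antisense genes cover 23.6% of the exons of GINS4.

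MCM10, which acts when the helicase is switched on, had 57.8, 52.9 and 62.1 CPM in VNLG-152R replicates 1 to 3, against 76.8, 68.0 and 73.6 CPM in vehicle control replicates 1 to 3. The groups did not overlap, and the log2 fold change was -0.34 (standard error 0.09, edgeR adjusted p = 0.0495). MCM10 kept its call in 0 of the 6 refits that left out 1 library, with log2 fold changes between -0.40 and -0.28. CDC45, the helicase cofactor, had the highest level of the 6 genes at 23.7 RPKM. It had 49.2, 43.8 and 46.3 CPM in VNLG-152R replicates 1 to 3, against 57.4, 55.9 and 58.5 CPM in vehicle control replicates 1 to 3, a log2 fold change of -0.30 (standard error 0.08, edgeR adjusted p = 0.0526) with no overlap.

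**Figure D2:**
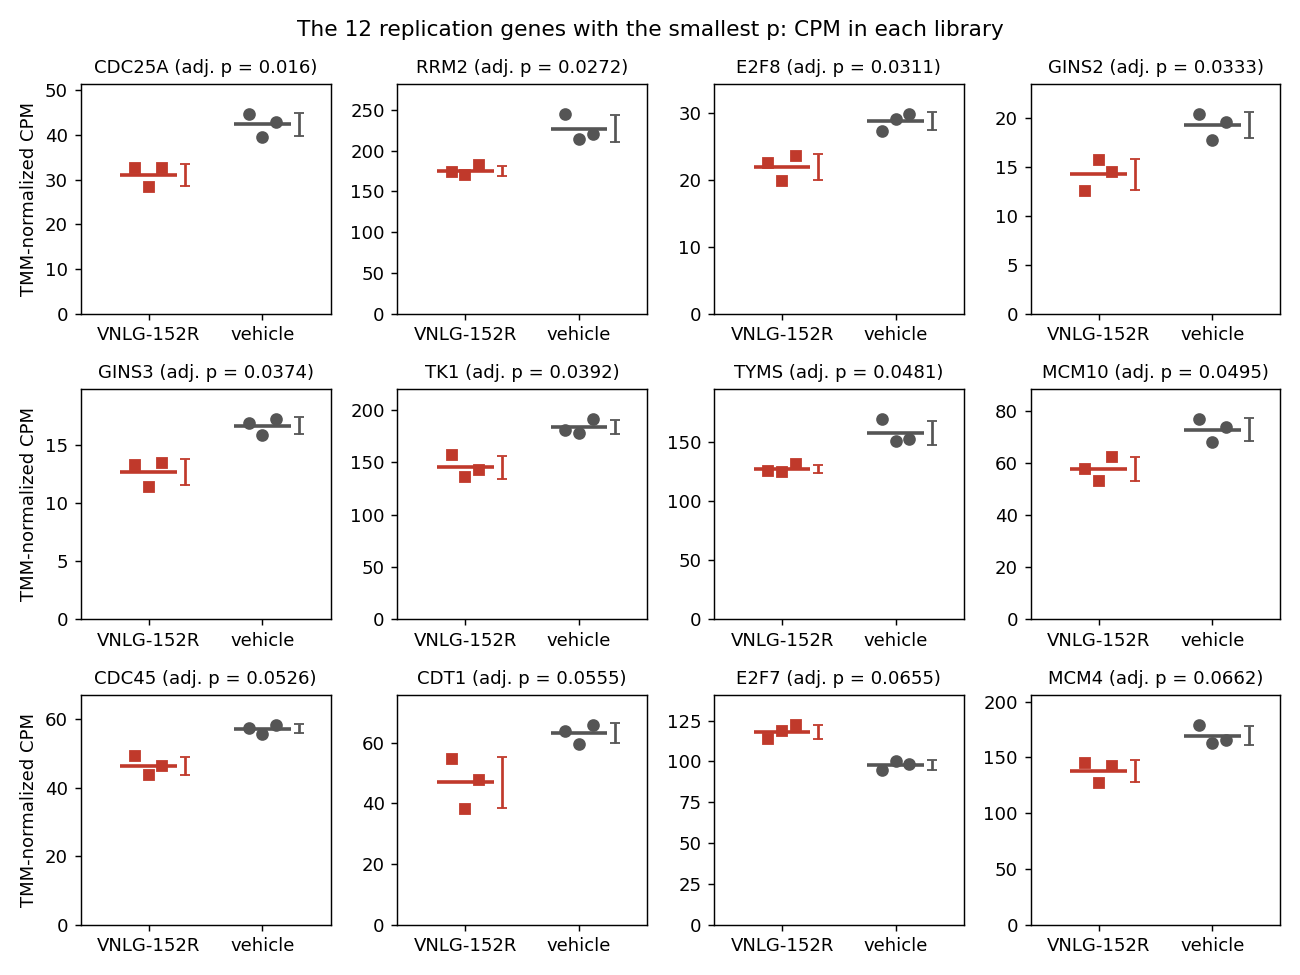
TMM-normalized CPM (y axes, from 0) of the 12 genes with the smallest p in each VNLG-152R library (red squares) and each vehicle control library (grey circles), with the mean as a line and the SD as a bar beside it (n = 3 each) and the edgeR adjusted p above each panel. In 11 panels every VNLG-152R point lies below every vehicle control point, and for E2F7 every VNLG-152R point lies above.

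In nucleotide supply, RRM2, TYMS and TK1 fell (60%, beside 1.43% of all tested genes), and the median log2 fold change of the 5 genes was -0.31. In all 5 the VNLG-152R libraries lay below all vehicle control libraries, beside 13.4% of all tested genes. RRM2, the small subunit of ribonucleotide reductase whose level follows S phase, lies on chromosome 2 from 10120698 to 10131419. It had 174, 171 and 182 CPM in VNLG-152R replicates 1 to 3, against 246, 214 and 221 CPM in vehicle control replicates 1 to 3, a log2 fold change of -0.37 (standard error 0.08, edgeR adjusted p = 0.0272). Its large subunit RRM1 had 236, 222 and 244 CPM in VNLG-152R replicates 1 to 3, against 282, 247 and 252 CPM in vehicle control replicates 1 to 3. The log2 fold change of RRM1 was -0.16 (standard error 0.09, edgeR adjusted p = 0.311), and whether it differs from that of RRM2 was not tested. Of the exons of RRM2, 20.2% are shared with another gene on the same strand, and 3 pseudogenes bear its name.

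TK1, the cytosolic thymidine kinase of the salvage route, had the highest level of the 5 at 95.2 RPKM. It had 157, 136 and 142 CPM in VNLG-152R replicates 1 to 3, against 181, 178 and 191 CPM in vehicle control replicates 1 to 3, a log2 fold change of -0.34 (standard error 0.08, edgeR adjusted p = 0.0392). TYMS, the thymidylate synthase of the de novo route, lies on chromosome 18 from 657604 to 673578. It had 126, 125 and 131 CPM in VNLG-152R replicates 1 to 3, against 169, 151 and 152 CPM in vehicle control replicates 1 to 3, a log2 fold change of -0.31 (standard error 0.08, edgeR adjusted p = 0.0481). Neither group overlapped the other in these 2 genes. TYMS kept its call in 0 of the 6 refits that left out 1 library (edgeR adjusted p 0.068 to 0.148) and lost it with the length correction (0.0999), and TK1 kept its call in 1 of the 6. The antisense genes ENOSF1 and TYMSOS cover 46.6% of the exons of TYMS, and whether the counting used strand is not known here. DUT, the dUTPase that supplies the precursor of thymidylate, had a log2 fold change of -0.24 (edgeR adjusted p = 0.143), and 8 pseudogenes bear its name.

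At the replication fork none of the 14 genes passed the test, 13 had a negative log2 fold change and the median was -0.16. At an unadjusted p under 0.05, 4 of the 14 were lower in edgeR, beside 9.76% of all tested genes. DESeq2 called FEN1 and PCNA lower, beside 3.67% of all genes, and limma-voom called 0, beside 1.35%. PCNA, the sliding clamp that holds polymerases on DNA, had the highest level of all 47 genes at 159 RPKM. It had 189, 216 and 228 CPM in VNLG-152R replicates 1 to 3, against 280.4, 247 and 244 CPM in vehicle control replicates 1 to 3, a log2 fold change of -0.28 (standard error 0.10, edgeR adjusted p = 0.105). VNLG-152R replicate 1 was the lowest library for PCNA and vehicle control replicate 1 the highest, and the groups did not overlap. FEN1, the flap endonuclease that trims Okazaki fragments, had a log2 fold change of -0.33 (edgeR adjusted p = 0.0745), and those of RFC2, RFC3, RFC4 and RFC5, the clamp loader subunits, were -0.23, -0.24, -0.17 and -0.17. The polymerase and primase genes POLA1, POLA2, POLD1, POLE2, PRIM1 and PRIM2 lay between -0.20 and -0.05 with overlapping groups, as did the ligase LIG1 at -0.16. POLE, the catalytic subunit of polymerase epsilon, had a log2 fold change of 0.16 with overlapping groups, which was 0.069 without VNLG-152R replicate 1, or 0.24 when VNLG-152R replicate 3 was left out. PRIM2 was 0.0057 without VNLG-152R replicate 1 and 0.0039 without vehicle control replicate 1. POLA2 had only 2.23 to 3.62 CPM, and 35.1% of its exons are shared with a gene on the same strand.

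All 4 genes of replication-coupled chromatin had every VNLG-152R library below every vehicle control library, a pattern held by 13.4% of all tested genes. Their median log2 fold change was -0.27, but none passed the test. All 4 were lower at an unadjusted p under 0.05 in edgeR, beside 9.76% of all tested genes. DESeq2 called SLBP and UHRF1 lower, beside 3.67% of all genes, and limma-voom called 0, beside 1.35%. SLBP, which binds the stem-loop of histone mRNAs, had 76.2, 77.6 and 84.5 CPM in VNLG-152R replicates 1 to 3, against 117, 92.4 and 91.9 CPM in vehicle control replicates 1 to 3. Its log2 fold change was -0.34 (standard error 0.10, edgeR adjusted p = 0.0797), and without vehicle control replicate 1, its highest library, it was -0.21. UHRF1, which guides DNA methylation to new DNA, had -0.29, and CHAF1A and CHAF1B of the CAF-1 chaperone, which places histones behind the fork, had -0.22 and -0.25.

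The VNLG-152R libraries differed among themselves in which genes were low. The median log2 ratio of the 47 genes to the vehicle control mean was -0.22, -0.27 and -0.22 in VNLG-152R replicates 1 to 3, against 0.07, -0.06 and 0.01 in vehicle control replicates 1 to 3. Of the 3 VNLG-152R libraries, replicate 1 was the lowest for 18 genes, replicate 2 for 27, and replicate 3 for POLE and RFC2. Genes lowest in VNLG-152R replicate 1, such as PCNA, GINS2 and SLBP, had a median transcript GC content of 44.8%, and those lowest in VNLG-152R replicate 2, such as CDT1, MCM2 and TK1, had 51.7%. Vehicle control replicate 1 was the highest control for 31 genes.

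**Figure D3:**
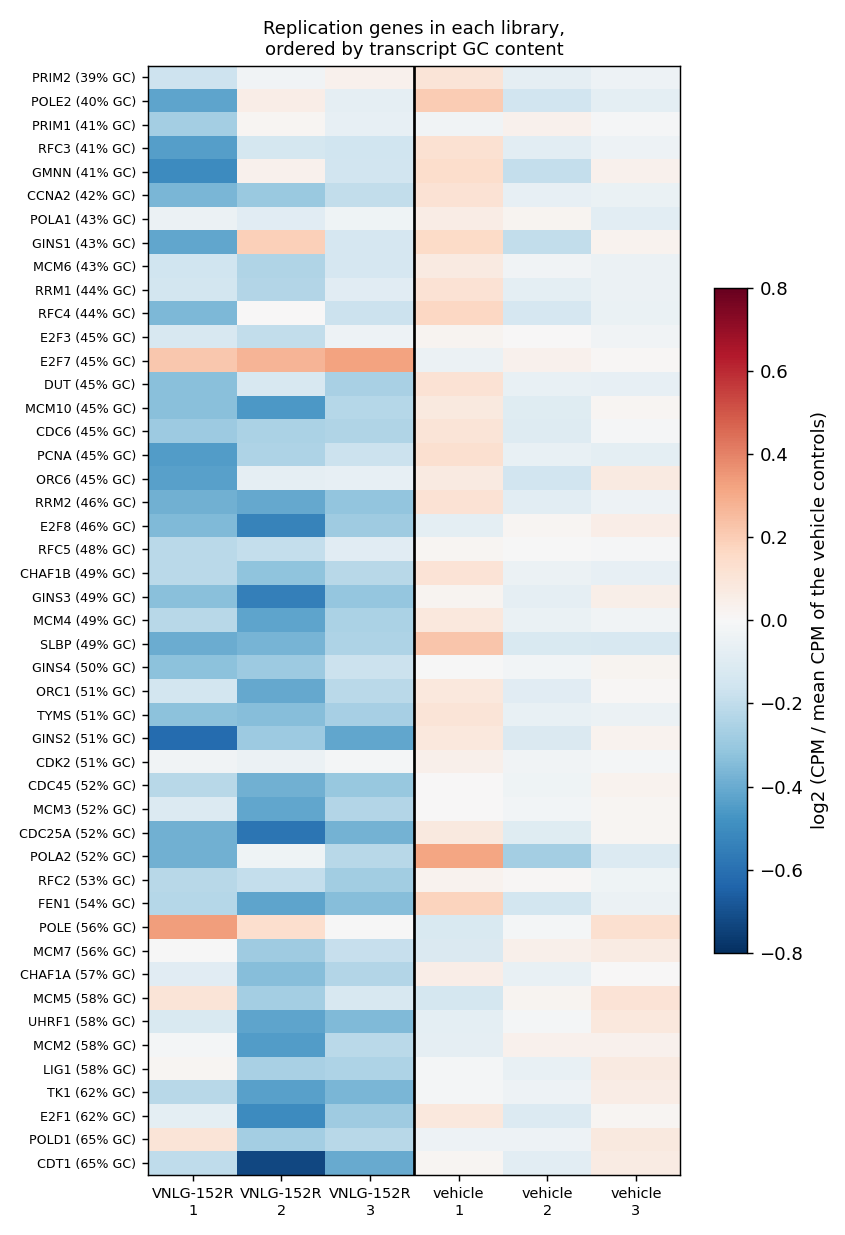
Log2 ratio of CPM to the vehicle control mean (color, blue below and red above) for the 47 genes, from low to high transcript GC content down the page, in each VNLG-152R and vehicle control library. Most cells of the 3 VNLG-152R columns are blue, with the strongest blue toward low GC content in replicate 1 and toward high GC content in replicate 2, and E2F7 is red in all 3.

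Over the 47 genes, GC content had a Spearman's rho of -0.75 with the log2 ratio of VNLG-152R replicate 2 to 1 and of -0.81 with that of replicate 3 to 1. Over the 10523 tested genes with at least 5 CPM, which share the same libraries and differ in base composition, the values were -0.67 and -0.74, so the pattern was not one of replication genes alone. In the vehicle control libraries the ratio of replicate 2 to 1 had a rho of 0.39 over the 47 genes and 0.37 over the wider set. With the log2 fold change itself, rho was -0.27 over the 47 genes and -0.06 over the wider set. The 47 genes had a median GC content of 49.1%, against 48.5% in the wider set. After each library was corrected for GC content, a step chosen after seeing the data, 18 of the 47 genes fell and E2F7 rose, beside 4.03% of all genes falling and 6.67% rising, and the median log2 fold change was -0.23.

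**Figure D4:**
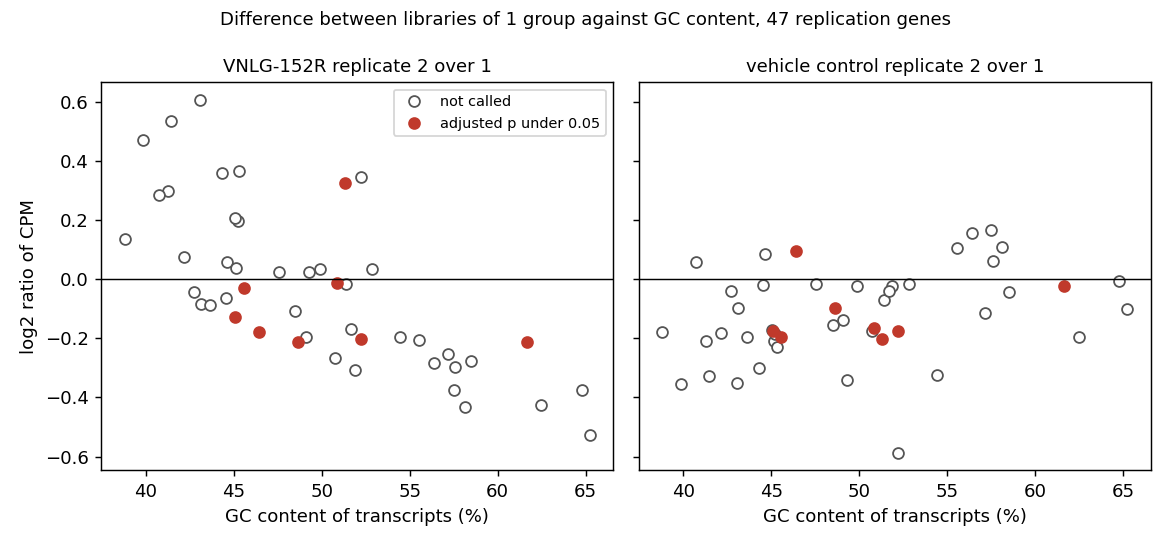
Transcript GC content (percent, x axes) of the 47 genes against the log2 ratio of CPM in VNLG-152R replicate 2 over 1 (left) and vehicle control replicate 2 over 1 (right), with filled red points for the 8 genes that fell. The left points run downward with GC content (Spearman's rho -0.75) and the right ones upward (0.39).

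In each of 5 lists of related genes, chosen for their function, 1 or 2 genes were called. Over the 5 lists these were 7 of 137 genes tested (5.11%), beside 5.19% of all tested genes. By direction, 5 fell (3.65%, beside 1.43% of all tested genes) and 2 rose (beside 3.76% of all tested genes). Of 42 other replication factors tested, TIPIN, which steadies stalled forks, fell with a log2 fold change of -0.45 (edgeR adjusted p = 0.0231). POLD4, the small subunit of polymerase delta, rose at 0.52 (edgeR adjusted p = 0.047), and the median of the list was -0.13. POLD4 had only 3.90 to 6.62 CPM, limma-voom did not call it, and 21.3% of its exons are shared with a gene on the same strand. With 1 library left out, TIPIN kept its call in 3 of the 6 refits and POLD4 in 1. Of 31 other enzymes of nucleotide synthesis, only ADSS1, an adenylosuccinate synthase, rose, with a log2 fold change of 0.72, and the median was -0.19. It had 2.88, 3.17 and 2.44 CPM in VNLG-152R replicates 1 to 3, against 1.58, 1.84 and 1.73 CPM in vehicle control replicates 1 to 3. Of these 31 enzymes 0 fell in edgeR, and 13 were lower at an unadjusted p under 0.05, beside 9.76% of all tested genes. DESeq2 called 1 lower, beside 3.67% of all genes. Of 14 other genes of the RB and E2F family, MYBL2, a transcription factor that E2F controls, fell with a log2 fold change of -0.43 (edgeR adjusted p = 0.0224), and the median of the list was -0.10.

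Of 15 G1 cyclins, kinases and inhibitors, CCNE2, cyclin E2, and CDKN2C, the inhibitor p18, fell. CCNE2, the partner of CDK2 before S phase, had 19.2, 25.8 and 27.6 CPM in VNLG-152R replicates 1 to 3, against 41.7, 31.9 and 32.1 CPM in vehicle control replicates 1 to 3. Its log2 fold change was -0.54 (standard error 0.14, edgeR adjusted p = 0.0441), and the groups did not overlap. Antisense genes cover 37.1% of the exons of CCNE2, and whether the counting used strand is not known here. CDKN2C had a log2 fold change of -0.34 (edgeR adjusted p = 0.0405), and the median of the list was -0.17. Among 35 G2 and mitotic genes, 30 had a negative and 5 a positive log2 fold change, with a median of -0.19. In 19 the VNLG-152R libraries lay below all vehicle control libraries (54.3%, beside 13.4% of all tested genes). In 1, CENPF, they lay above (beside 15.1%), with a log2 fold change of 0.29 (edgeR adjusted p = 0.064). MKI67 had 0.26 with overlapping groups (edgeR adjusted p = 0.186). In edgeR 1 gene of the list passed the test (2.86% lower, beside 1.43%). This was the anaphase activator CDC20 (-0.34, edgeR adjusted p = 0.0497). DESeq2 called 5 lower and 1 higher of the G1 list, and 6 lower and 1 higher of the mitotic list. Of all genes it called 3.67% lower and 6.66% higher. With the length correction edgeR called 0 genes of either list, and the adjusted p was 0.0671 for CCNE2, 0.0552 for CDKN2C and 0.102 for CDC20. The 7 calls over the 5 lists became 9 without VNLG-152R replicate 1, 1 without VNLG-152R replicate 2, and 3 when VNLG-152R replicate 3 was left out. They became 0 without vehicle control replicate 1, 5 without vehicle control replicate 2 and 0 without vehicle control replicate 3. Over these 6 refits, 0.251% to 1.98% of all genes were called lower and 1.26% to 3.43% higher.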

How the data were processed

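MDA-MB-231 RNA was sequenced by the study after polyA selection, in strand-specific paired-end mode, from 3 VNLG-152R and 3 vehicle samples. The files deposited by the authors hold raw counts per Ensembl gene. HISAT, HTSeq, DESeq and GRCh38 appear in the submitters' processing notes without version or role, and neither the annotation release nor the strand option is given in the sources used here. HTSeq's special classes were left out: no annotated gene (3.36% to 5.05% of read pairs in VNLG-152R libraries, against 2.63% to 3.17% in vehicle control libraries), ambiguous (4.81% to 4.96%, against 4.96% to 5.16%) and not unique (7.81% to 8.12%, against 7.83% to 7.95%).

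Testing used edgeR 4.0.16 under R 4.3.3 (TMM, filterByExpr, quasi-likelihood test, two-sided), with Benjamini-Hochberg adjustment over all tested genes and a threshold of 0.05. Residual degrees of freedom were 4. The standard error was derived from the F statistic. RPKM uses exon lengths of GENCODE 29. GC content is that of all GENCODE 29 transcripts of a gene pooled. The 47 genes, their role groups and the related lists were chosen with earlier results of these data known. Named with library values are genes with an adjusted p under 0.05, the 12 with the smallest p, the gene of highest RPKM in each role group and subunits of the same complexes. With 3 against 3 samples no exact permutation p can be under 0.10, so none is given.

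Each choice was varied once: scaling (RLE, library size), filtering (none, or at least 1 CPM on average), tool (DESeq2 1.42.0, limma-voom from limma 3.58.1), threshold, thinning, replicate block, lowess correction (span 0.3) for length and, chosen after seeing the data, for GC content, and leaving out each library. Promoter sequences come from RefSeq.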

Additional observations from a re-analysis of the deposited data

Results flagged for a closer look

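The share of read pairs that fell in no annotated gene, which no comparison above uses, was higher in every VNLG-152R library than in any vehicle control library. It was 3.52%, 5.05% and 3.36% in VNLG-152R replicates 1 to 3, against 3.17%, 2.63% and 3.05% in vehicle control replicates 1 to 3. The lowest VNLG-152R share of 3.36% lay above the highest vehicle control share of 3.17%. Its part in the lower replication genes was not tested.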

How the results depend on the processing

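Of the 47 genes, 8 were called at an adjusted p under 0.05 in edgeR. RLE size factors, library size only, no filter, a mean of at least 1 CPM, limma-voom and thinning gave between 7 and 11 calls. DESeq2 gave 19, the GC correction 19, the GC and length corrections together 17, the length correction 4, a threshold of 0.1 gave 18 and of 0.01 gave 0. Leaving out 1 library gave 0 to 10. Of the related lists, 7 genes were called, against 17 with no filter, 22 with DESeq2 and 29 with the GC correction. There were 25 with the GC and length corrections, 22 at 0.1, 0 at 0.01 and 0 to 9 with 1 library left out. Of all genes, 1.5% were called lower and 3.27% higher with no filter, and 3.67% and 6.66% with DESeq2. The shares were 4.03% and 6.67% with the GC correction, and 4.2% and 5.77% with the GC and length corrections. The median log2 fold change of the 47 genes was -0.21 with the length correction, -0.20 with the GC and length corrections and -0.28 to -0.20 with 1 library left out. Of the 47 genes, 3 turned sign in any setting, CDK2 (0.011 with the length correction, 0.011 with it and the replicate block, 0.016 with GC and length), GINS1 (0.040 without VNLG-152R replicate 1, with a range of -0.27 to 0.040 over all leave-outs) and PRIM2 (0.0057 without VNLG-152R replicate 1, 0.0039 without vehicle control replicate 1, 0.0019 with GC and length). In all these settings 43 to 45 of the 47 genes were negative. Of 540 values of the 30 genes that the naming rule gives, 396 kept their direction and side of the threshold, 113 lost the call, 27 gained it and 4 turned. The causes were not tested.

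Whether replicate numbers pair the libraries is not stated in the sources used here. Same-numbered libraries had correlations of deviations across genes of -0.192, -0.173 and -0.114, below all pairs of unlike numbers (0.0121 to 0.147). With the replicate number as a block, 1 of the 47 genes (CDC25A) and 0 genes of the related lists were called, beside 0.509% of all genes lower, and with the block and the length correction 0 and 0. At an unadjusted p under 0.05 in edgeR, 22 of the 47 genes were lower with the block and 21 with the block and the length correction. Depth limits the precision of the lowest genes, such as POLA2.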
